A study of Mus musculus with 4 samples.

Results

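This account follows 40 genes of glycolysis and the hypoxia response in 4T07 mouse mammary carcinoma cells, taken by symbol from the 24421 genes of an RNA-seq table. All 40 symbols were found, and 38 passed the filter on low values that left 10654 genes for testing. The cells are an established line of the Balb/cfC3H strain. Of the 4 libraries of polyadenylated RNA, 2 came from cells labelled control and 2 from cells labelled as overexpressing Six2, a homeobox transcription factor. Both groups were grown in the same way and harvested 48 hours after plating, and the labels name no low-oxygen treatment for either. The vector, the species of the introduced sequence and whether the lines were clones are each not given in the sources used here, nor is it said whether replicates were separate cultures. The p-values therefore measure only how far these libraries spread, and that spread may be technical.

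Glycolysis splits glucose into pyruvate in the cytosol, and lactate dehydrogenase turns pyruvate into lactate where cells do not send it to mitochondria. Hypoxia-inducible factors (HIFs) are pairs of an oxygen-labile alpha subunit and a stable partner. When oxygen is present, prolyl hydroxylases of the Egln family mark the alpha subunit and the Vhl protein directs its destruction. When oxygen is scarce, the surviving factor binds DNA at the core letters ACGTG or GCGTG and raises glucose transporters, nearly every glycolytic enzyme and a set of genes for acid balance, mitophagy and collagen folding. Tumour cells often run glycolysis at a high rate even in air.

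All values are RPKM, a read count scaled to the length of the gene and to the reads of its library, and are given for replicate 1 and then replicate 2 of a group. Read totals of the libraries ran from 41881864 to 81524250, so a single read over 1 kb equals 0.0123 to 0.0239 RPKM. Six2 itself was listed at 0 in both control libraries, at 0.0285 RPKM in replicate 1 and at 0 in replicate 2 of the libraries labelled Six2. The table thus shows no raised level of the gene that the labels name, and the second group is called by its label throughout. Of 8 mammary epithelial markers, Krt8 and Krt18 were abundant (Krt8 at 607 to 1059 RPKM), whereas Epcam stayed under 1 RPKM and Krt5 and Krt14 were at or near 0. Cdh1, which encodes E-cadherin, measured 14.6 and 8.403 RPKM in controls and 0.186 and 0.103 RPKM in Six2-labelled cells, and Krt7 at 10.8 and 8.67 RPKM against 0.467 and 0.634 RPKM. Krt19 was at 8.76 and 4.26 RPKM against 0.802 and 0.464 RPKM. Krt7 passed the test (limma adjusted p = 0.0397), and Cdh1 (0.0592) and Krt19 (0.119) did not. The abundant Krt8 and Krt18 had overlapping groups, with log2 differences of -0.21 and -0.25 (limma adjusted p = 0.784 and 0.801). The part that the differences of Cdh1, Krt7 and Krt19 have in the values below was not tested. The epithelial list summed to 1894 and 1238 RPKM in controls and 1664 and 998 RPKM in Six2-labelled cells, nearly all Krt8 and Krt18. Markers of endothelium and erythroid cells summed to at most 0.128 RPKM in any library, those of leukocytes to 5.35 to 13.7 RPKM (nearly all Cd68, with Ptprc at or near 0), and those of fibroblasts to 5.18 to 9.92 RPKM (nearly all Pdgfra, with Lum and Thy1 at 0). Those of adipocytes summed to 0.235 to 1.23 RPKM, nearly all Fabp4. In bulk RNA of this kind, fewer cells of a type and less RNA per cell cannot be told apart.

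The DNA just before a RefSeq start of 5 members shows the letters through which the hypoxia response is known to act. Among the members, Car9, Egln3 and Bnip3 were the 3 hypoxia genes with the smallest p, and Pfkl and Hk2 the glycolytic enzymes with the smallest p above and below 0. These members were picked for printing after their values were seen. Each line is the 250 bases before a RefSeq start in GRCm38.p6, read 5′ to 3′ on the strand of the gene, and capitals mark ACGTG or GCGTG on either strand (CACGT and CACGC are their reverse complements). The windows are chr4:43506776-43507025 (plus strand) for Car9, chr12:54203875-54204124 (minus) for Egln3, chr7:138909507-138909756 (minus) for Bnip3, chr10:78009808-78010057 (minus) for Pfkl and chr6:82774455-82774704 (minus) for Hk2.
Car9: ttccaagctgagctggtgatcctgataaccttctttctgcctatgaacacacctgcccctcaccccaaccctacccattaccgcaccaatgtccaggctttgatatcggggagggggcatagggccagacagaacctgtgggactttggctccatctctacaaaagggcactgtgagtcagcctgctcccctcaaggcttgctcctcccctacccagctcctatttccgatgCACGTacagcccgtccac
Egln3: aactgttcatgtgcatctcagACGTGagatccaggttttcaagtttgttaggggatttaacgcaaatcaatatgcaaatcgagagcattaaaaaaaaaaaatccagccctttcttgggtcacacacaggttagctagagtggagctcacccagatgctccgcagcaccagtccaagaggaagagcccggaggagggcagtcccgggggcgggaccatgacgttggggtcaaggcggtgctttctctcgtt
Bnip3: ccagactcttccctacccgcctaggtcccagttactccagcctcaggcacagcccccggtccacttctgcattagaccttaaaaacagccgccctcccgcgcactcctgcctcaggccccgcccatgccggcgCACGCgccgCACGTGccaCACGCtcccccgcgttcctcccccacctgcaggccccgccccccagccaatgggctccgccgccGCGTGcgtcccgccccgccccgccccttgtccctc
Pfkl: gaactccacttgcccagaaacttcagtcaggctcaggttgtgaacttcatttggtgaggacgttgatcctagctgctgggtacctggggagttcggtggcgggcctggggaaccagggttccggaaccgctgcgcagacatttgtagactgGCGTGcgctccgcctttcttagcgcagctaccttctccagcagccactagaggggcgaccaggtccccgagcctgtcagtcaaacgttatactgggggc
Hk2: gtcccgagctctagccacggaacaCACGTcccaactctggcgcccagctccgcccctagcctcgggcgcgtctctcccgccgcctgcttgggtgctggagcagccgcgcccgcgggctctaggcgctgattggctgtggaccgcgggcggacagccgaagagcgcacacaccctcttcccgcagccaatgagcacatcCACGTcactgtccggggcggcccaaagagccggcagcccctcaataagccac

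Car9 held 1 such match, which began 18 bases before the RefSeq start. Egln3 also held 1, at 229 bases before the start, and Pfkl held 1, a GCGTG at 99 bases. GENCODE starts both Car9 and Pfkl further upstream, at bases 43506966 and 78010083. The Car9 match and the whole Pfkl window therefore lie inside the GENCODE span of those genes. Bnip3 held 5 matches, among them 2 that overlap in the palindrome CACGTG, and Hk2 held 2 ACGTG matches. RefSeq windows of 300 bases (250 before to 50 after a start) were matched for 37 of the 40 members. ACGTG stood on either strand in at least 1 window of 25 of these 37 genes (67.6%), against 30.6% of the 8181 genes whose windows matched a gene tested or a member. GCGTG stood in 25 of 37 (67.6%), against 58.8%. At least 1 of these 2 motifs stood in 33 of 37 (89.2%), against 70.3%, so most genes tested hold a match of the kind marked above. Among the 16 members whose libraries labelled Six2 both lay above both controls, 10 held ACGTG (62.5%), and among the other 21 members with a window 15 did (71.4%). GCGTG stood in 8 of the 16 (50%) and in 17 of the 21 (81%). A match is a description of the sequence only.

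No member passed the test between groups. With limma on log2(RPKM + 1), 0 of 38 had an adjusted p under 0.05 (smallest adjusted p = 0.143, Car9), where 12 of the 10654 genes tested (0.113%) passed, 3 higher (0.0282%) and 9 lower (0.0845%). At an unadjusted p under 0.05 there were 6 members, 5 with higher and 1 with lower values in Six2-labelled cells. The total is near the 17% of all genes tested. The split by direction is not alike, since over all genes tested 7.36% were higher and 9.66% lower. A fit with voom on reads recovered from the table called 0 members and 0 of all genes, with 6 members at an unadjusted p under 0.05. The share of all genes at that unadjusted p was not counted with voom. Without Six2 replicate 2, 1 member passed, Car9, with a limma adjusted p of 0.0145, and over all genes 18 were then called higher and 50 lower. That fit takes its spread from the controls and assumes that the lone Six2-labelled library varies like them.

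As a description, the members nevertheless lay to one side. The log2 difference was above 0 for 26 of 38, against 47.9% of all genes tested, and its median was 0.16 against -0.01. Both libraries labelled Six2 lay above both controls for 16 members, where 21.9% of all genes did so. They lay below both controls for 3 members, where 25.5% of all genes did so, and 47.4% of all genes had groups that did not overlap in either direction. In size, 4 of the 38 members exceeded 0.5 on the log2 scale, namely Car9, Txnip, Egln3 and Pfkl. Of the 10654 genes tested, 1142 did so. Leaving out control replicate 1 took the members' median to 0.11 and leaving out control replicate 2 took it to 0.20. The members were put together with results of these data in view, so these counts do not bear on anything beyond the genes themselves.

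**Figure D1:**
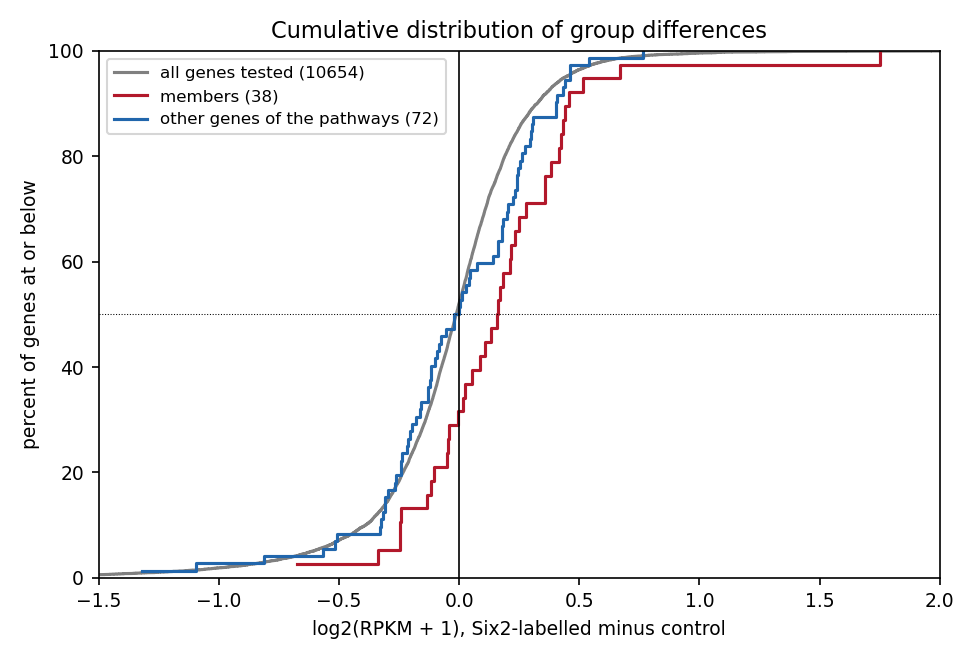
Cumulative share of genes (vertical axis, percent) at or below each group difference on the log2(RPKM + 1) scale (horizontal axis), for all 10654 genes tested, the 38 members tested and 72 other genes of the same pathways. The members' line lies to the right of the other lines over most of its length, crossing 50% at 0.16.

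Levels, which RPKM makes comparable between genes per length, spanned more than 3 orders of magnitude. Pkm and Gapdh headed the members at means of 2876 and 2834 RPKM over the 4 libraries and were 8 and 9 in rank among all genes of the table. Ldha (1185 RPKM), Aldoa (1132 RPKM), Tpi1 (754 RPKM) and Pgk1 (432 RPKM) followed. A set of 9 members that holds 1 enzyme gene for each step from glucose 6-phosphate isomerase to lactate dehydrogenase, phosphofructokinase left out, took 1.67% and 1.85% of all reads in controls and 2.26% and 2.06% in Six2-labelled cells. The groups did not overlap in that share, and 47.4% of single genes tested did not overlap in either direction. The enolase of the set is Eno1, whereas Eno1b and Eno3, which are not members, had higher RPKM in each library. Regulators were scarcer, with Pfkfb3 and Pfkfb4 at means of 3.47 and 4.13 RPKM.

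**Figure D2:**
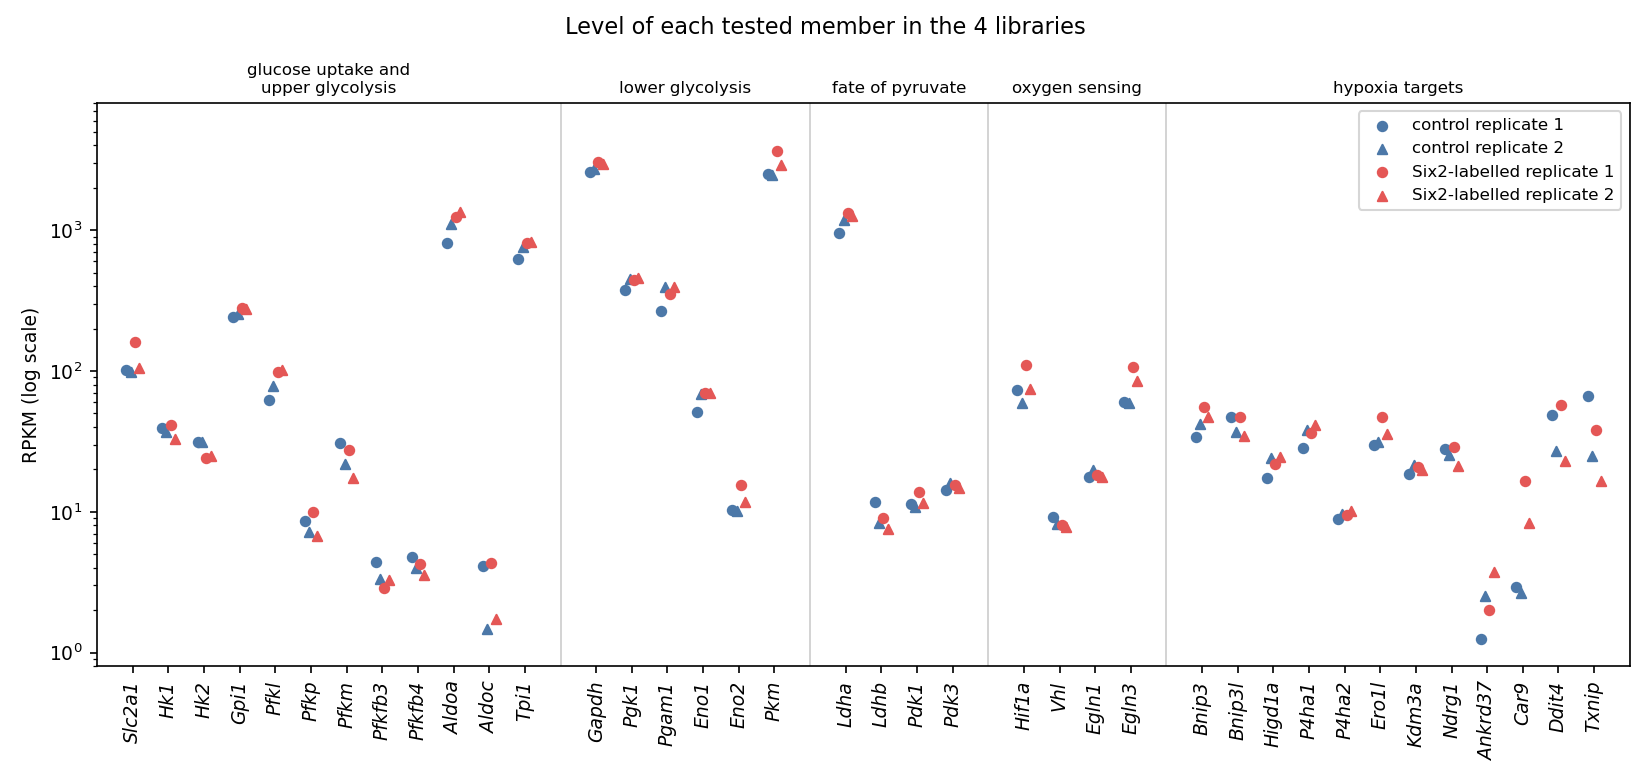
RPKM of each of the 38 tested members (log scale) in the 2 control and 2 Six2-labelled libraries, in order of role, with circles for replicate 1 and triangles for replicate 2. Pkm and Gapdh stand highest, and Car9 is the member whose groups stand farthest apart.

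Slc2a1 encodes a widely expressed glucose transporter, and hexokinases carry out the first step of glycolysis. Slc2a1 measured 102.5 and 98.9 RPKM in controls and 159.5 and 104.5 RPKM in Six2-labelled cells. Its log2 difference of 0.36 (SE 0.222, limma adjusted p = 0.491) rested on Six2 replicate 1, and without that library it was 0.05, against 0.66 without Six2 replicate 2. Hk2, the hexokinase isoform typical of tumours and a known HIF target, lay on the other side of 0. It measured 31.4 and 31.3 RPKM in controls and 24.2 and 25.03 RPKM in Six2-labelled cells, a log2 difference of -0.34 (SE 0.0904, limma adjusted p = 0.203). The groups did not overlap, and within each group the replicates lay close together. Hk1, the widely expressed isoform, was at 39.4 and 36.7 RPKM against 41.2 and 33.1 RPKM, with overlapping groups. Hk2 accordingly made up 44.3% and 46.0% of hexokinase RPKM in controls and 37.0% and 43.1% in Six2-labelled cells.

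Phosphofructokinase commits sugar to glycolysis and is built from liver-type (Pfkl), muscle-type (Pfkm) and platelet-type (Pfkp) subunits. Pfkl was the main form and had the largest difference of the glycolytic enzymes among the members. It measured 62.0 and 77.9 RPKM in controls and 98.3 and 101 RPKM in Six2-labelled cells, a ratio of means of 1.43 and a log2 difference of 0.51 (SE 0.14, limma adjusted p = 0.203). Pfkm was at 30.9 and 21.9 RPKM against 27.4 and 17.4 RPKM and Pfkp at 8.66 and 7.21 RPKM against 9.98 and 6.77 RPKM, and for both genes the groups overlapped. In these genes replicate 2 lay below replicate 1 in each group. The Pfkm share of phosphofructokinase RPKM was 30.4% and 20.5% in controls and 20.2% and 13.9% in Six2-labelled cells, so control replicate 2 and Six2 replicate 1 were almost alike. With 2 libraries in each group the smallest p that an exact two-sided permutation test can give is 0.333, which the share of Pfkm reached.

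The bifunctional enzymes encoded by Pfkfb3 and Pfkfb4 make and remove the sugar phosphate that activates phosphofructokinase. Pfkfb3 measured 4.399 and 3.33 RPKM in controls and 2.88 and 3.28 RPKM in Six2-labelled cells. Its groups stood apart only narrowly, with control replicate 2 next to Six2 replicate 2. Pfkfb4 was at 4.74 and 3.99 RPKM against 4.23 and 3.56 RPKM, with overlap.

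The following steps were carried by single abundant genes, and each had a difference above 0. Gpi1, which encodes glucose 6-phosphate isomerase, measured 240.5 and 255.7 RPKM in controls and 278.8 and 274.3 RPKM in Six2-labelled cells. Aldoa, the main aldolase, was at 818 and 1114 RPKM against 1248 and 1349 RPKM, a log2 difference of 0.44 (SE 0.176, limma adjusted p = 0.317). Control replicate 1 was the low library, and without it the difference of Aldoa was 0.22, against 0.66 without control replicate 2. The brain-type aldolase gene Aldoc made up under 1% of aldolase RPKM and followed the replicate numbers, at 4.10 and 1.46 RPKM against 4.36 and 1.72 RPKM. Tpi1, which encodes triose phosphate isomerase, was at 622 and 759 RPKM against 811 and 823 RPKM.

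In lower glycolysis, which yields ATP and pyruvate, all 6 members had differences above 0, between 0.13 and 0.38. That count rested on control replicate 1, without which Pgam1 was at -0.0685, Pgk1 at 0.0044 and Eno1 at 0.0165. Gapdh, a gene often used as a reference for loading, measured 2609 and 2728 RPKM in controls and 3061 and 2939 RPKM in Six2-labelled cells (log2 difference 0.17, SE 0.0889, limma adjusted p = 0.424). The annotation holds 77 near-identical copies of Gapdh, of which only 3 are listed with RPKM values. Of these 3, 1 reached 1 RPKM, Gm12070, at 2.74 to 3.73 RPKM. Pgk1, Ldha and Bnip3 have 4, 3 and 5 such copies, of which 0 are listed. Copies that are not listed have no value here, and how reads that match them were assigned is not given. Pkm, whose product makes pyruvate, was at 2493 and 2480 RPKM against 3636 and 2894 RPKM. Its log2 difference was 0.38 (SE 0.14, limma adjusted p = 0.287), and 0.22 without Six2 replicate 1, the highest of the 4 libraries. Pgk1, the kinase gene of the first ATP-yielding step, was at 376 and 450 RPKM against 445 and 457 RPKM, and Pgam1, which encodes phosphoglycerate mutase, at 266 and 393 RPKM against 355 and 396 RPKM. In both genes control replicate 1 was the low library, and the other 3 lay together.

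Enolase reads were divided among several genes. Eno1, the common form, measured 50.9 and 69.0 RPKM in controls and 69.3 and 70.4 RPKM in Six2-labelled cells, low for a step of this pathway. Eno1b, a copy whose transcript matches that of Eno1 at 95% identity or more over at least 300 bases, was at 156 and 190 RPKM against 194 and 212 RPKM. Reads recovered from the table put Eno1 at 14.5%, 15.9%, 15.7% and 14.7% of the reads of both genes in the 4 libraries. That share was alike in the 4 libraries, and how the authors assigned reads that match both genes is not given in the sources used here. The level of Eno1 alone is therefore uncertain, and Eno1b was added after its values were seen. Eno2, the neuronal form and a hypoxia target, was at 10.4 and 10.1 RPKM against 15.5 and 11.6 RPKM (log2 difference 0.36, SE 0.16, limma adjusted p = 0.359). Without Six2 replicate 1 the difference of Eno2 was 0.17, and without Six2 replicate 2 it was 0.55. Eno3, the muscle form, lay on the other side of 0, at 188 and 200 RPKM in controls and 159 and 154 RPKM in Six2-labelled cells (log2 difference -0.31, limma adjusted p = 0.218). Of the RPKM summed over these 4 genes, Eno3 held 46.4% and 42.6% in controls and 36.3% and 34.4% in Six2-labelled cells. These shares are uncertain too, since the sum depends on how reads that match both Eno1 and Eno1b were assigned.

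**Figure D3:**
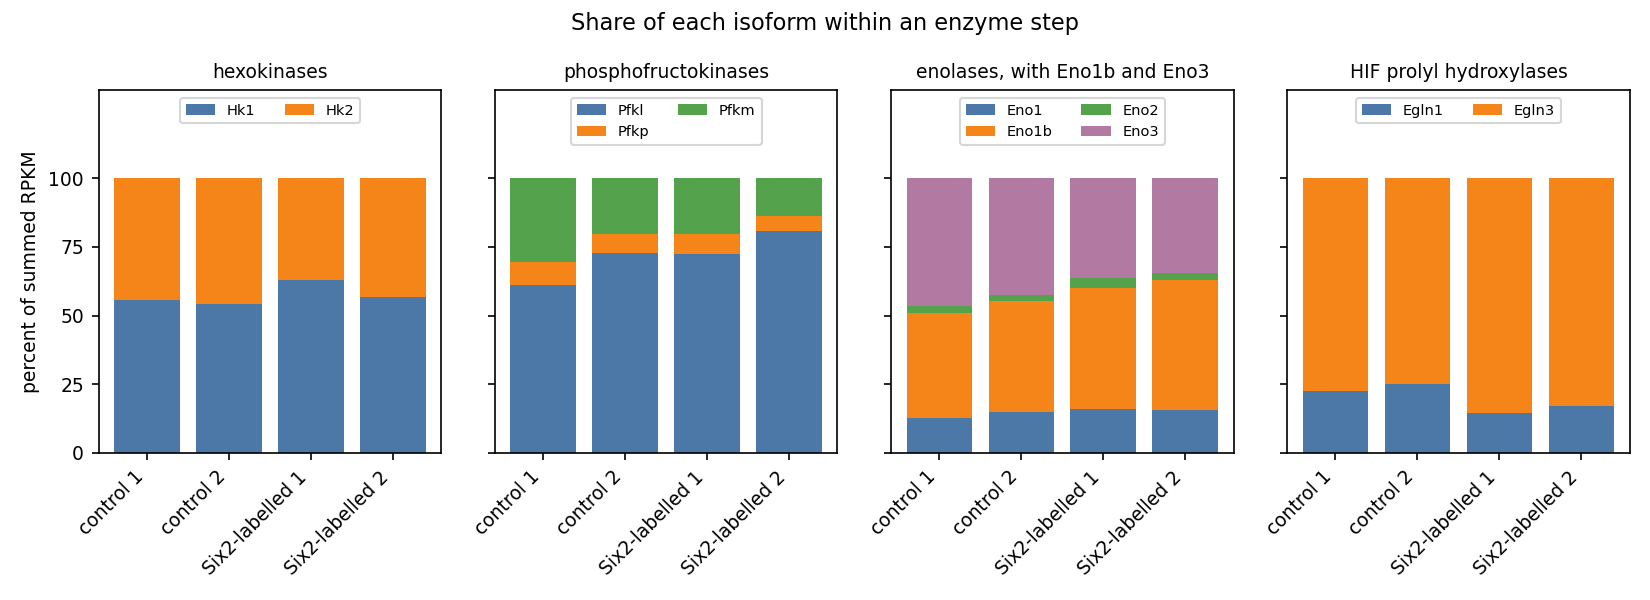
Share of each isoform in the summed RPKM of its enzyme step (bars from 0 to 100 percent) in each of the 4 libraries. Eno3 takes less of the enolase bar and Egln3 more of the prolyl hydroxylase bar in both Six2-labelled libraries. The phosphofructokinase bars of control replicate 2 and Six2-labelled replicate 1 are nearly equal. Enolase shares depend on how reads that match both Eno1 and Eno1b were assigned, which is not given.

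There was far more RNA for lactate dehydrogenase A than for B. Ldha, the form that favours lactate and a classical HIF target, measured 960 and 1187 RPKM in controls and 1326 and 1265 RPKM in Six2-labelled cells (log2 difference 0.28, SE 0.135, limma adjusted p = 0.388). Without control replicate 1 the difference of Ldha was 0.13, and without control replicate 2 it was 0.43. Ldhb was at 11.8 and 8.39 RPKM against 9.05 and 7.51 RPKM, and Ldha formed 98.8% to 99.4% of the pair. Pdk1 and Pdk3 encode kinases that shut pyruvate out of mitochondria by blocking pyruvate dehydrogenase. Pdk1 was at 11.3 and 10.8 RPKM against 13.9 and 11.5 RPKM, its groups just apart, and Pdk3 at 14.3 and 16.1 RPKM against 15.4 and 14.9 RPKM. Slc16a3, the lactate exporter gene usually induced by HIF, was listed at 0 in all 4 libraries, where 3 reads on a gene of 1 kb would be 0.0368 to 0.0716 RPKM. The related transporter gene Slc16a1 measured 36.2 and 42.2 RPKM in controls and 58.0 and 56.5 RPKM in Six2-labelled cells. Its log2 difference was 0.54 (SE 0.114, limma adjusted p = 0.159), and 0.33 with chromosome medians removed. Its chaperone gene Bsg was at 268 and 259 RPKM against 310 and 286 RPKM.

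Among the oxygen-sensing genes, nearly all RNA for the alpha subunits was that of Hif1a. Hif1a measured 73.3 and 59.1 RPKM in controls and 111 and 74.5 RPKM in Six2-labelled cells. Epas1, which encodes the HIF-2 alpha subunit, did not pass the filter, at 0.312 and 0.112 RPKM against 0.15 and 0.0344 RPKM. The groups of Hif1a stood apart by a narrow margin, since control replicate 1 and Six2 replicate 2 were nearly equal, and its log2 difference of 0.46 (SE 0.233, limma adjusted p = 0.412) was 0.18 without Six2 replicate 1 and 0.74 without Six2 replicate 2.

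Egln3, which encodes the prolyl hydroxylase PHD3 and is itself induced by HIF, had the second smallest p of the members. It measured 60.6 and 59.1 RPKM in controls and 107 and 85.4 RPKM in Six2-labelled cells, a ratio of 1.61 and a log2 difference of 0.67 (SE 0.139, limma adjusted p = 0.156). Both libraries labelled Six2 lay well above the closely matched controls. Egln1, which encodes the main oxygen sensor PHD2, was at 17.6 and 19.7 RPKM against 18.1 and 17.7 RPKM. Egln3 made up 77.5% and 75.0% of the RPKM of the pair in controls and 85.5% and 82.8% in Six2-labelled cells, where the exact permutation p is 0.333, the smallest possible. Vhl was at 9.18 and 8.22 RPKM against 8.07 and 7.83 RPKM, its groups narrowly apart.

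Hif1a and Egln3 both lie on chromosome 12 (GRCm38, 73901375 to 73947530 and 54178981 to 54203860), whose 364 tested genes had a median log2 difference of 0.25. With the median of each chromosome removed from each library, the difference of Egln3 was 0.43 (limma adjusted p = 0.334) and that of Hif1a 0.22 (limma adjusted p = 0.767). Positions along the chromosome were not examined, and the part that its median has in either gene was not tested further. Medians of similar size were found on chromosomes 1 (0.325), 3 (0.214), 16 (-0.211) and 17 (-0.208). Txnip lies on chromosome 3, and its difference was -0.885 with chromosome medians removed. The chromosomes of Car9 (4), Bnip3 (7), Pfkl (10), Hk2 (6) and Pkm (9) had medians between -0.09 and 0.09.

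Car9, which encodes carbonic anhydrase IX, an enzyme of the cell surface that balances acid and is widely used as a marker of hypoxic tumour tissue, had the largest difference of the 38 members. It was at 2.94 and 2.63 RPKM in controls, which are 248 and 216 reads, and at 16.5 and 8.26 RPKM, or 1618 and 1319 reads, in Six2-labelled cells. The ratio of means was 4.45 and the log2 difference 1.75 (SE 0.33, limma adjusted p = 0.143). The controls agreed closely, while the libraries labelled Six2 lay far from each other. Without Six2 replicate 1, the higher of them, the difference was 1.29 (limma adjusted p = 0.0932), and without Six2 replicate 2 it was 2.21 (0.0145). The gene lies on chromosome 4 (GRCm38, 43506966 to 43513729, plus strand, protein coding).

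Other targets of HIF had smaller differences, and several differed more between replicate numbers than between groups. Bnip3, which encodes a receptor for mitophagy, measured 34.0 and 42.0 RPKM in controls and 55.9 and 47.2 RPKM in Six2-labelled cells (log2 difference 0.43, SE 0.156, limma adjusted p = 0.285), and without control replicate 1 the difference of Bnip3 was 0.28. Its relative Bnip3l was at 47.3 and 36.6 RPKM against 46.9 and 34.5 RPKM, nearly the same in both groups and lower in replicate 2 of each. Ero1l, which encodes an oxidase of protein folding, was at 30.02 and 31.2 RPKM against 47.0 and 35.9 RPKM. Its log2 difference was 0.41 (SE 0.156, limma adjusted p = 0.296), and 0.23 without Six2 replicate 1. Higd1a, a gene of a mitochondrial inner-membrane protein, was at 17.5 and 24.02 RPKM against 21.7 and 24.5 RPKM.

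P4ha1 and P4ha2 encode the catalytic subunits that hydroxylate proline in collagen. P4ha1 was at 28.5 and 38.3 RPKM against 36.0 and 41.3 RPKM and P4ha2 at 8.89 and 9.61 RPKM against 9.54 and 10.2 RPKM, with overlapping groups in both. The histone demethylase gene Kdm3a was at 18.5 and 21.4 RPKM against 20.8 and 19.8 RPKM, and the stress gene Ndrg1 at 27.9 and 25.5 RPKM against 28.8 and 21.3 RPKM. Ankrd37, a small and strongly hypoxia-inducible gene, was at 1.26 and 2.51 RPKM against 1.99 and 3.76 RPKM, with replicate 2 the higher in each group. Ankrd37 overlaps Ufsp2 on the opposite strand, as Pfkp does Pitrm1, Pfkm does Senp1 and Tpi1 does Spsb2, and whether strand was used in counting is not given in the sources used here.

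Ddit4 and Txnip sense energy and glucose rather than oxygen alone. Ddit4, which encodes an inhibitor of mTORC1, measured 48.5 and 26.8 RPKM in controls and 57.7 and 23.0 RPKM in Six2-labelled cells. Both libraries numbered 2 lay well below both numbered 1, and the log2 difference between groups was 0.02 (SE 0.526). Txnip, which encodes an arrestin-like brake on glucose uptake, was at 66.8 and 24.9 RPKM against 38.3 and 16.5 RPKM. Its log2 difference was -0.68 (SE 0.62, limma adjusted p = 0.651), and it ran from -1.37 without control replicate 2 to 0.02 without control replicate 1. For both genes the replicates of each group lay further apart than the means of the groups did.

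**Figure D4:**
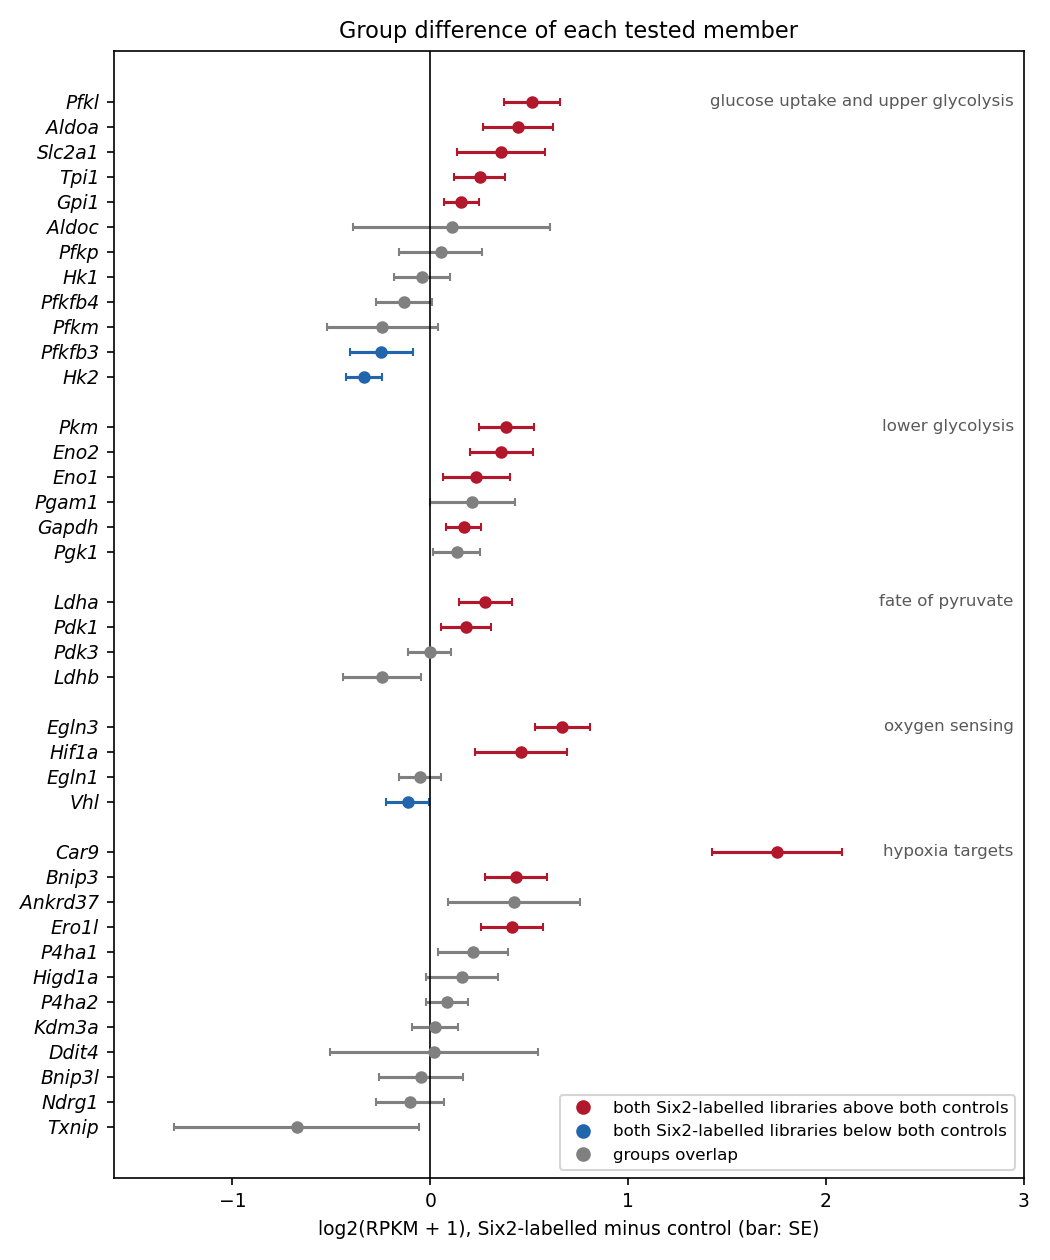
Log2(RPKM + 1) difference between Six2-labelled and control libraries (horizontal axis) with its standard error for each of the 38 tested members, in order of role. Red marks the 16 members with both Six2-labelled libraries above both controls, blue the 3 below and grey the overlapping groups, and Car9 at 1.75 stands farthest from 0.

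A further 103 genes of the same pathways were taken from lists chosen by function, and 72 of them passed the filter. With limma 0 of the 72 had an adjusted p under 0.05, against 0.113% of all genes tested. At an unadjusted p under 0.05 there were 12, 6 in each direction, which is near the share of all genes tested. That share was 17%, with 7.36% higher and 9.66% lower. Voom also called 0, with 14 at an unadjusted p under 0.05, and the share of all genes at that p was not counted with voom. Their median log2 difference was -0.01, with 35 above and 37 below 0. Of 22 other hypoxia targets tested, 10 lay above 0 and the median was -0.02. The 2 most abundant were Mif, which encodes a cytokine (660 and 861 RPKM against 973 and 1079 RPKM), and P4hb, the partner of the collagen hydroxylases (517 and 577 RPKM against 509 and 490 RPKM). Stc1, a secreted calcium regulator and hypoxia target named after its values were seen, measured 7.91 and 5.26 RPKM in controls and 2.63 and 1.46 RPKM in Six2-labelled cells (log2 difference -1.32, SE 0.278, limma adjusted p = 0.159). Both libraries labelled Six2 lay below both controls.

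Of 8 pentose phosphate genes, which draw sugar off glycolysis for NADPH and ribose, 5 lay below 0 (median -0.10). Tkt, which encodes transketolase, was at 160 and 126 RPKM against 117 and 122 RPKM and Taldo1, which encodes transaldolase, at 124 and 131 RPKM against 130 and 124 RPKM. In gluconeogenesis, the reverse route, only 2 of 6 genes passed the filter. G6pc3, which encodes a widely expressed glucose 6-phosphatase, measured 14.9 and 16.5 RPKM in controls and 8.30 and 8.70 RPKM in Six2-labelled cells (log2 difference -0.81, SE 0.107, limma adjusted p = 0.102). Pck2, the mitochondrial carboxykinase gene, was at 15.2 and 9.54 RPKM against 8.99 and 7.48 RPKM. G6pc3 had the smallest adjusted p of the 72.

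Of 11 genes for the entry of pyruvate into mitochondria, 6 lay above 0 (median 0.16, and 0.06 with chromosome medians removed). The alpha and beta subunit genes of pyruvate dehydrogenase lay on opposite sides of 0, Pdha1 at 135 and 118 RPKM against 113 and 101 RPKM and Pdhb at 60.0 and 55.2 RPKM against 72.7 and 69.0 RPKM. Of 10 other glycolysis enzymes 5 lay above 0, with Pgm2, a phosphoglucomutase gene, at 90.9 and 72.4 RPKM against 118 and 78.2 RPKM. Of 10 other oxygen-sensing genes 6 lay above 0. The elongin genes Tceb1 and Tceb2, which encode partners of the Vhl protein, were at 41.1 and 47.4 RPKM against 58.8 and 63.8 RPKM and at 350 and 385 RPKM against 311 and 337 RPKM. With chromosome medians removed their differences were 0.15 and 0.04.

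Txnip is regulated by the glucose-responsive factors Mlxip and Mlx, and Arrdc4 encodes a related arrestin under the same control. Mlx measured 11.3 and 16.0 RPKM in controls and 16.2 and 22.1 RPKM in Six2-labelled cells, and Mlxip at 11.9 and 7.53 RPKM against 14.2 and 8.56 RPKM. Arrdc4, named after its values were seen, was at 7.96 and 3.42 RPKM against 2.53 and 1.46 RPKM (log2 difference -1.09, SE 0.403, limma adjusted p = 0.292). Like Txnip it was highest in control replicate 1 and lowest in Six2 replicate 2.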

How the data were processed

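RNA-seq of 4 libraries, 2 in each group, was analysed from the RPKM table that the authors deposited. Per the submitters' processing notes, TopHat2 2.1.1, SAMtools 1.5, Picard 2.9.4 and HTSeq 0.8.0 were among the tools. The gene annotation, the use of strand and the handling of multiply matching reads are each not given in the sources used here. Whole reads and library totals were recovered from the steps of the RPKM values within 0.001 reads. Genes that reached 1 RPKM in 2 or more libraries were tested on log2(RPKM + 1) with limma 3.58.1 in R 4.3.3 (trended prior, two-sided, Benjamini-Hochberg adjustment over all genes tested, threshold 0.05). Log2 differences are on that scale and understate the change of low genes, whereas ratios are of mean RPKM. Tested on simulated data without a shared replicate effect, the fit made more false calls than its threshold allows. Most of them, but not all, were in genes with very few reads, so calls over all genes are less certain, most of all there. The simulated spread differs from that of these libraries, so its rate of false calls may not hold here. Near-identical transcripts were found with BLAST 2.17.0, gene positions came from GENCODE on GRCm38 and promoter windows from RefSeq on GRCm38.p6. The 40 members, the other lists and the markers were chosen with earlier results of these data known. All members are described, and of each other list the 2 genes of highest mean RPKM. Alternatives covered the pseudocount, filter, scaling, chromosome medians, voom, replicate block and each replicate left out.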

Additional observations from a re-analysis of the deposited data

How the results depend on the processing

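Members called numbered 0 under the other pseudocount, both filters, both scalings, chromosome medians removed and voom, and 0 to 1 higher and 0 lower with 1 replicate left out. Over all genes, 3 were called higher and 9 lower. There were 0 and 0 with no filter, where more low genes were tested, 4 and 27 with a filter at 1 CPM, 0 and 0 with voom, and 2 to 18 and 9 to 50 with 1 replicate left out (the most without Six2 replicate 2). The members' median stayed between 0.11 and 0.20 when replicates were left out, and that of the other pathway genes between -0.0849 and 0.0387.

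Replicate numbers were not taken as pairs, since the labels name no shared culture or batch and there are only 2, although the difference of replicate 2 from replicate 1 correlated between groups across genes (r = 0.818 over 10654 genes, which are not independent). With a replicate block, 14 members were called higher and 4 lower (47.4%, against 43.5% of all genes, 2133 higher and 2506 lower), and of the other pathway genes 23 and 18.

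The sign of the log2 difference held in all 12 settings for 25 of 38 members, 20 above and 5 below 0. Both changes of filter and the replicate block leave each member's difference as it was, so they could not change a sign. The same count was not made over all genes. Outside the fits with a replicate left out, Pdk3 changed sign with relative log expression factors (0.0155), TMM factors (0.0099) and chromosome medians removed (0.0598), and Ddit4 with voom (-0.0247) and chromosome medians removed (-0.0375). With 1 replicate left out, the lowest and highest values of those that changed sign were Hk1 -0.20 and 0.11, Pgam1 -0.0685 and 0.49, Bnip3l -0.26 and 0.17, Higd1a -0.0578 and 0.38, Kdm3a -0.0738 and 0.12, Txnip -1.37 and 0.0179, Pfkp -0.20 and 0.30, Aldoc -0.42 and 0.63, Pdk3 -0.0828 and 0.0772, Egln1 -0.13 and 0.0274, Ddit4 -0.63 and 0.66, Pfkm -0.55 and 0.0705 and Ndrg1 -0.31 and 0.11. The cause was not tested. The edgeR and DESeq2 tests were not run. The deposited values are RPKM, and of the tests made for counts only voom was run, on the recovered reads.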
